A study of Mus musculus with 16 samples.

Results

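Induced pluripotent stem cells (iPSCs) of the mouse were derived from the proximal tubule of the kidney (lines PTC11 and PTC12) and from fibroblasts of the tail tip (lines TTF1 and TTF4). TTF4 carried a set of methylated promoters that had low methylation in the other 3 lines. A gene was included when the fraction of methylated CpGs around its transcription start site (TSS) was at least 0.6 in TTF4 and at most 0.3 in each of PTC11, PTC12 and TTF1. Of 48866 genes on chromosomes 1 to 19 with a value in all 4 lines, 1054 met this rule, which is 2.16% of them. Of these 523 were protein coding genes. The genes were chosen by these fractions, which are therefore given as a description and without a test.

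All came from mice of 8 to 10 weeks of age that carried OKMS-250, rtTAROSA (neo-in), a tdTomato reporter and SLC34a1-GCE, and in which doxycycline (DOX) drives Oct4, Klf4, c-Myc and Sox2. In the PTC lines a tamoxifen-dependent Cre under the Slc34a1 promoter released the reprogramming system, and tdTomato+/GFP+ kidney cells were sorted. In the TTF lines Cre came instead from an episomal plasmid introduced by electroporation. All lines were picked clones, kept growing without DOX on feeder fibroblasts, and were studied at early passage. Each line gave 1 library for CpG methylation by nanopore sequencing, 1 for H3K4me3 and 1 for H3K36me3, so TTF4 stands for 1 clone without a second library. A test of TTF4 against the other lines would rest on the spread of the other 3 lines alone and was not run, and p-values between origins measure only the spread between 2 lines of each origin.

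DNA methylation at CpGs is copied at each cell division, and dense methylation of a promoter is commonly associated with a silent gene. CpG islands, which are stretches rich in CpG at many promoters, usually stay unmethylated. H3K4me3 is a histone mark found at active and poised promoters, and its writers bind unmethylated CpG-rich DNA. H3K36me3 lies over the bodies of transcribed genes. In pluripotent mouse cells, genes of the germline and of naive pluripotency are among those whose promoters are open in some states and methylated in others.

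Promoter sequence is shown for 6 genes whose values are given below, because methylation is read at the CpGs of such stretches. Each stretch is the 250 bases before the RefSeq start on GRCm38.p6, the assembly of mm10, read in the direction of the gene, with every CG in capitals. Itga8 encodes an integrin subunit needed for kidney formation, Zfp42 (Rex1) and Tcl1 are genes of naive pluripotent cells, Dmc1 is the meiotic recombinase, Rbmxl2 is an RNA-binding protein of spermatocytes and Mlh3 takes part in mismatch repair and meiotic crossing over.
Itga8, chr2:12301945-12302194 (minus strand, 18 CpGs): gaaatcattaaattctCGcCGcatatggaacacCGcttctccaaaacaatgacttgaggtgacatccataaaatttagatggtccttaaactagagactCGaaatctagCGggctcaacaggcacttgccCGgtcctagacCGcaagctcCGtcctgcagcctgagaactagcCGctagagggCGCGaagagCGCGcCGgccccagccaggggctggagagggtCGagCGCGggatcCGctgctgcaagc
Zfp42, chr8:43307010-43307259 (minus strand, 9 CpGs): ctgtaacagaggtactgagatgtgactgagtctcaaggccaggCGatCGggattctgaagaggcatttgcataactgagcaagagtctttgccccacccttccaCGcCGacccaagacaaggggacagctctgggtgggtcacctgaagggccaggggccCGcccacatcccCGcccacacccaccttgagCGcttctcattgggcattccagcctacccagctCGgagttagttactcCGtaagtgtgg
Tcl1, chr12:105222738-105222987 (minus strand, 7 CpGs): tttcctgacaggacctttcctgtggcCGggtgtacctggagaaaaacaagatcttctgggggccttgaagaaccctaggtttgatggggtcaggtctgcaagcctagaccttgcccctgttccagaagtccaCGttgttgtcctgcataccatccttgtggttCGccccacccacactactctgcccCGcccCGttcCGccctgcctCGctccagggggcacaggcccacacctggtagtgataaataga
Dmc1, chr15:79605110-79605359 (minus strand, 12 CpGs): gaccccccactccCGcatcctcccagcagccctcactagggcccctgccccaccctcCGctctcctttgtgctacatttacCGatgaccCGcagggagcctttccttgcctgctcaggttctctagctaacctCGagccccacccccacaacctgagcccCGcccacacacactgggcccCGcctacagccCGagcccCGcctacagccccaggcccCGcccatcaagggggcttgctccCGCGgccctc
Rbmxl2, chr7:107209195-107209444 (plus strand, 23 CpGs): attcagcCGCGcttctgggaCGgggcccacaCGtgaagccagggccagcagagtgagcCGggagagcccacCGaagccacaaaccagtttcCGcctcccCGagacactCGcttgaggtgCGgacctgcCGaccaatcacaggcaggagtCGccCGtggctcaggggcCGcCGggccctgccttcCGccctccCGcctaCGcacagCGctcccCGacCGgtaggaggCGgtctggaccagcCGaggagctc
Mlh3, chr12:85270600-85270849 (minus strand, 15 CpGs): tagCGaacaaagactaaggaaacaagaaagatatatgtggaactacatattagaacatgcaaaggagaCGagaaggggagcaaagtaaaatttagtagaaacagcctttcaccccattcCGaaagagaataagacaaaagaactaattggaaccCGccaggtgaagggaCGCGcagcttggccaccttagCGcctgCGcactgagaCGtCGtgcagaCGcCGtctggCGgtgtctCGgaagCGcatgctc
The dinucleotide CG reads the same on both strands, and it was counted in all 32851 RefSeq promoter entries, where the median was 6 in the 250 bases and 92.1% held at least 1. In the 607 entries of the 474 TTF4-methylated genes that had any, the median was 7 and 97.2% held at least 1.

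The set also held 57 miRNA genes, of which 43 had a mature sequence in RefSeq. The mature sequences of 7 are shown from a pair of clusters, the pluripotency-associated Mir290 to Mir295 cluster on chromosome 7 and the growth-promoting Mir17 to Mir92 cluster on chromosome 14. These genes were chosen after their values were seen. Capitals mark the seed, bases 2 to 8, which sets the targets of a miRNA.
mmu-miR-294-3p, chr7:3220691-3220712: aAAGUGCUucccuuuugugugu
mmu-miR-295-3p, chr7:3220815-3220837: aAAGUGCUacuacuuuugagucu
mmu-miR-293-3p, chr7:3220390-3220411: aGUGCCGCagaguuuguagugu
mmu-miR-20a-5p, chr14:115044183-115044205: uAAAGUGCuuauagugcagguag
mmu-miR-19a-3p, chr14:115044048-115044070: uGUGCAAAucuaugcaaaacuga
mmu-miR-19b-3p, chr14:115044358-115044380: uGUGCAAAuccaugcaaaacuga
mmu-miR-92a-3p, chr14:115044476-115044496: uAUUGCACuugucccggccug
The 7 miRNAs carried 5 different seeds. miR-294-3p shared its seed with miR-295-3p, and miR-19a-3p shared its seed with miR-19b-3p.

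TTF4 was the most methylated line over all autosomal genes, with a median fraction of 0.768, against 0.379 in PTC11, 0.533 in PTC12 and 0.369 in TTF1. The same rule with another line in place of TTF4 found 3 genes for PTC11, 9 for PTC12 and 1 for TTF1. When the mean of each line was subtracted first and the thresholds shifted with it, 367 genes were found for TTF4, 353 of them members, and when the 4 distributions were made equal by quantile normalization 220 were found, all 220 of them members. The fractions came without coverage, so the precision of a single fraction is unknown. In bulk DNA, full methylation in some cells and partial methylation in all cells cannot be told apart. Of 10 pluripotency markers, Pou5f1, Sox2, Lin28a, Dnmt3b, Tdgf1 and Klf4 had H3K4me3 and fractions of at most 0.3 in all 4 lines. Nanog (0.391 in PTC12 and 0.362 in TTF4) and Sall4 (0.401 in TTF4) had H3K4me3 in all 4 lines at higher fractions. Zfp42 (0.803 in TTF4) had H3K4me3 outside TTF4, and Esrrb, at 0.399 to 0.747, had none in any line. Of 7 proximal tubule markers H3K4me3 was listed for 3 in PTC12 and for 1 in each other line, with Lrp2 listed in all 4. Of 9 fibroblast and feeder markers it was listed for 2 in PTC11, 6 in PTC12, 6 in TTF1 and 4 of them in TTF4, with summed levels from 5.88 to 22.5 RPKM, and Dcn, Lum and Postn were listed in no line. The part of feeder cells in the results was not tested.

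The median fraction of the members was 0.799 in TTF4, against 0.136 in PTC11, 0.198 in PTC12 and 0.136 in TTF1. The quartiles in TTF4 were 0.694 and 0.886, and 22 genes were at 1. The members nearest to the TTF4 threshold from inside were Kcnk6 (0.6007), Gm6659 (0.6008) and Tstd3 (0.6010), and nearest from outside were Gm13657 (0.5999), and Eef1akmt1 and 1700039M10Rik, which share a window and were both at 0.5999. At the other threshold, Gm31374 (PTC12, 0.3), Gm45355 (PTC12, 0.2998) and 4930480C01Rik (TTF1, 0.2995) were just inside, while Gm11290 (PTC11, 0.3004), Corin (PTC12, 0.3006) and Gm44943 (PTC12, 0.3007) were just outside.

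**Figure D1:**
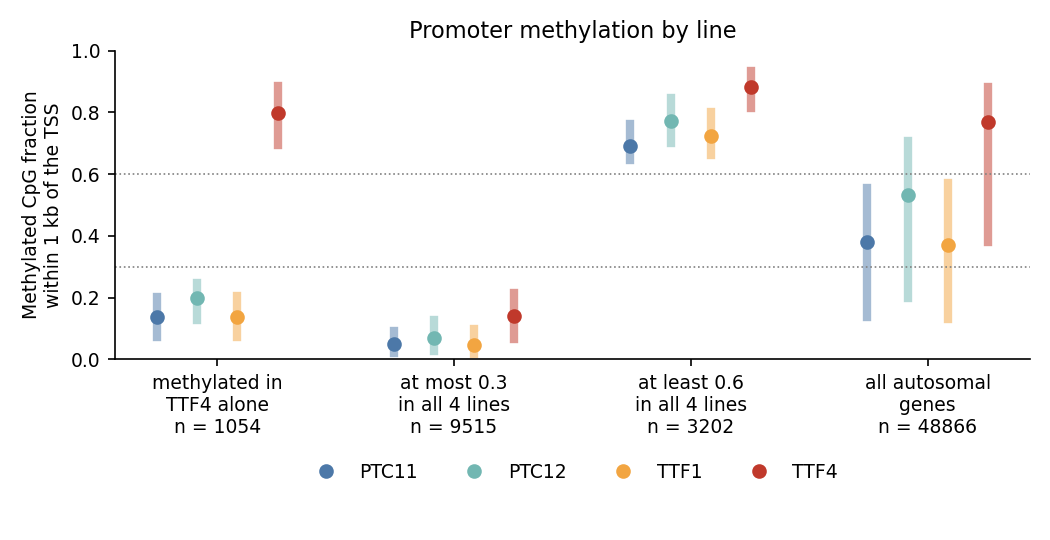
Fraction of methylated CpGs within 1 kb of the TSS in each line, for genes methylated in TTF4 alone, for genes at most 0.3 or at least 0.6 in all 4 lines, and for all autosomal genes. Points are medians, bars the range between the quartiles and dotted lines the thresholds 0.3 and 0.6. The first class is set apart in TTF4 by the rule, and the last class shows that TTF4 also had the highest median, 0.768, over all genes.

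Promoters low in the other lines took every level in TTF4. Of 13962 genes at most 0.3 in PTC11, PTC12 and TTF1, 9515 (68.1%) were also at most 0.3 in TTF4, 3393 (24.3%) lay between the thresholds and 1054 (7.55%) were members. The share of such low promoters that were members was 4.73% for protein coding genes, 22.1% for lincRNA genes, 21.3% for miRNA genes, 30.3% for snoRNA genes and 49.0% for pseudogenes. Of all autosomal genes of these classes, members were 2.61%, 2.54%, 2.87%, 3.24% and 0.961% in the same order, against 2.16% of all genes. By this second measure pseudogenes were below the share of all genes. Members were spread over all 19 autosomes, from 30 on chromosome 16 to 103 on chromosome 7. As a share of the low promoters of a chromosome they ranged from 4.77% on chromosome 1 to 12.3% on chromosome 12.

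The members had fewer CpGs than promoters that stayed unmethylated. The median number of CpGs within 1 kb of the TSS was 43, with quartiles of 27 and 70. It was 105 in the 9515 genes at most 0.3 in all 4 lines, 21 in the 3202 genes at least 0.6 in all 4 lines and 27 over all autosomal genes. The median ratio of observed to expected CpG was 0.35, 0.69, 0.22 and 0.26 in the same order. Even so, 199 members (18.9%) had 80 CpGs or more, such as Rbmxl2 with 184, Cdkn1c with 171 and Nsd1 with 108. Such counts were found in 78.4% of the genes low in all 4 lines. Another protein coding TSS lay within 1 kb of 7.40% of the members and of 32.4% of the genes low in all 4 lines.

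**Figure D2:**
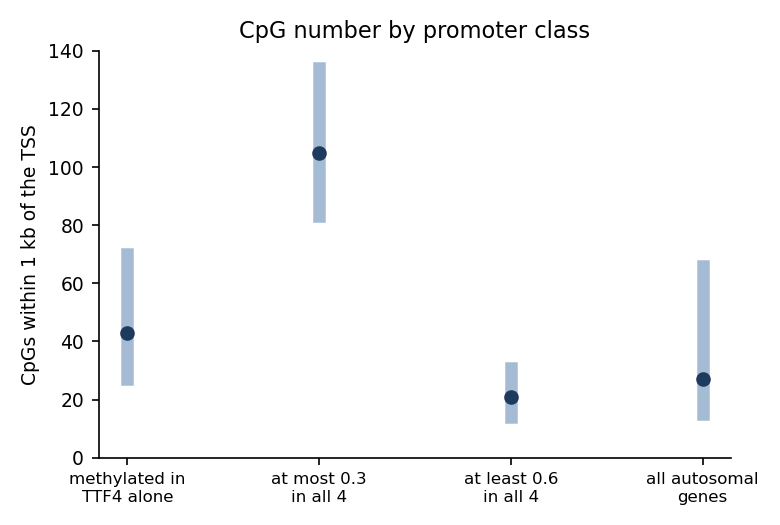
Number of CpGs within 1 kb of the TSS in the reference genome by promoter class. Points are medians and bars the range between the quartiles. The genes methylated in TTF4 alone, with a median of 43, sit between genes methylated in all lines (21) and genes low in all lines (105).

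Most members had no other member within 1000 bp. The TSSs fell into 965 groups when those within 1000 bp were joined, and 72 groups held 2 or more members, 161 genes in all, whose methylation windows overlap. Runs of 3 or more members with at most 50 kb between neighbours numbered 32 and held 125 genes. The longest run, of 8 members, lay in the gamma protocadherin cluster on chromosome 18, from Pcdhgb1 to Gm26672.

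Of the gene lists, that of pluripotency genes had the highest share of members. Of 29 autosomal pluripotency genes with values, 6 were members (20.7%, against 2.16% of all genes), namely Tcl1, Gdf3, Prdm14, Dppa4, Zfp42 and Dppa2. Among the 19 of these genes that were low in the other lines, the share was 31.6%, against 7.55% of all such promoters. The list was chosen with earlier results of these data known, so no test is attached to these shares. Each of the 6 had H3K4me3 in PTC11, PTC12 and TTF1 and none in TTF4. With fractions centred on each line 4 of them met the rule (Prdm14, Gdf3, Zfp42 and Tcl1), and with quantile-normalized fractions 3 did (Prdm14, Gdf3 and Tcl1).

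Tcl1, a coactivator of Akt that supports self-renewal, had a fraction of 0.946 in TTF4, against 0.00476 in PTC11, 0 in PTC12 and 0.0197 in TTF1. Its H3K4me3 was 3.64 RPKM in PTC11, 3.19 in PTC12 and 4.00 in TTF1, with no value in TTF4. Of all protein coding members it had the widest gap, 0.927, between TTF4 and the next line. The 250 bases printed above hold 7 CpGs, the median of the member entries.

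Prdm14, a regulator that keeps the naive state and represses Dnmt3b, had fractions of 0.0345, 0.140, 0.0254 and 0.879 in PTC11, PTC12, TTF1 and TTF4. Its H3K4me3 was 3.02, 3.06 and 4.16 RPKM in the first 3 lines. Gdf3, a TGF-beta family ligand, had 0.144, 0.129, 0 and 0.887, with H3K4me3 of 3.92, 2.72 and 5.26 RPKM outside TTF4. TTF4 was the only line without H3K4me3 in both genes, and H3K36me3 was listed only in PTC11 and TTF1.

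Zfp42, a zinc finger protein that marks naive pluripotent cells, had fractions of 0.0284, 0.209, 0.100 and 0.803, and H3K4me3 of 4.86, 2.54 and 3.11 RPKM in PTC11, PTC12 and TTF1. Dppa4 and Dppa2 form a complex at CpG-rich promoters in pluripotent cells and lie side by side on chromosome 16. The fractions of Dppa4 were 0, 0.103, 0.0504 and 0.759, and those of Dppa2 were 0.0514, 0.190, 0.153 and 0.608. H3K4me3 outside TTF4 was between 2.97 and 4.30 RPKM for Dppa4 and between 2.52 and 4.24 RPKM for Dppa2. Both had gene body H3K36me3 in TTF4, at 6.65 RPKM for Dppa4 and 5.47 for Dppa2. It was 7.06 and 4.90 RPKM in PTC12 and 0.876 and 1.58 in PTC11. TTF1 had 1.19 RPKM for Dppa4 and no value for Dppa2. Over all autosomal genes with 4 values the median H3K36me3 was likewise higher in TTF4 and PTC12, 4.14 RPKM in each, than in PTC11 (1.68) and TTF1 (1.23).

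The rest of the list was divided. In TTF4, 12 of the 29 genes were at most 0.3, including Pou5f1, Sox2, Lin28a, Klf2 and Klf4. A further 8 were at least 0.6 without being members, since another line was above 0.3. Dppa3 was such a gene, with 0.36 in PTC12 and 0.86 in TTF4, as was Dppa5a, with 0.31 and 0.77. Of 26 list genes with H3K4me3 in the other 3 lines, 9 had no value in TTF4, against 6.15% of all such autosomal genes. All 9 had a TTF4 fraction of at least 0.6. Fgf4 (0.674 in TTF4) and Trim28 (0.65) were also above that level and had H3K4me3 in TTF4, at 3.58 and 3.65 RPKM.

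**Figure D3:**
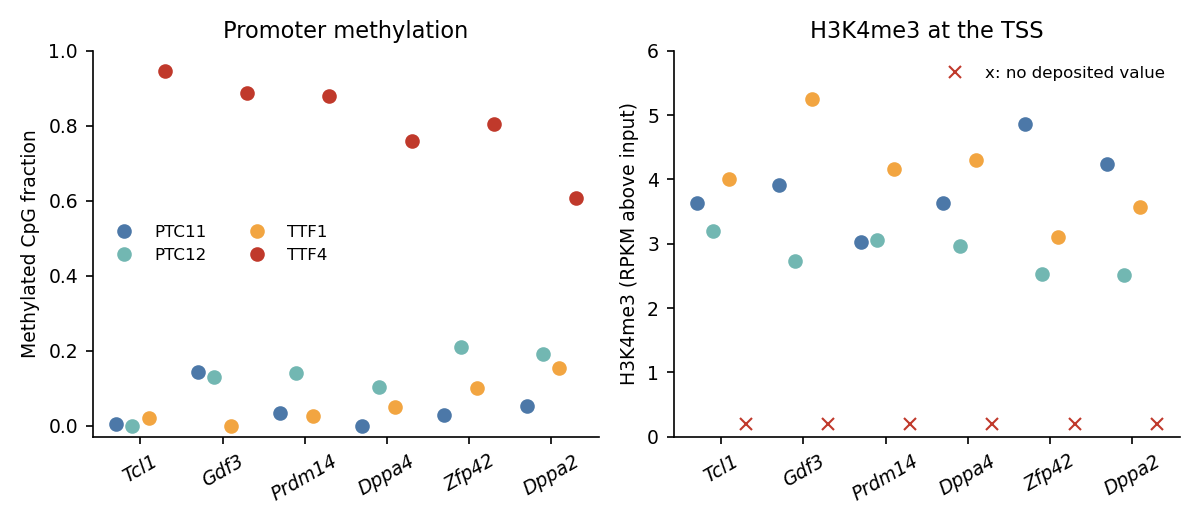
Methylated CpG fraction (left) and H3K4me3 in RPKM above input (right) of the 6 pluripotency genes in the set, 1 point for each line. TTF4 is at 0.608 or higher and the other lines at 0.209 or lower, and the crosses near the axis mark the 6 genes without an H3K4me3 value in TTF4.

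Some genes linked to the same state were seen only after the values were known. Tdh, the threonine dehydrogenase used by mouse pluripotent cells, had fractions of 0.065, 0.141, 0.100 and 0.913, and H3K4me3 of 3.36, 4.04 and 2.82 RPKM with none in TTF4. Sox15, a SOX factor of pluripotent cells and placenta, had 0.0133, 0.0174, 0 and 0.833 and kept H3K4me3 at 3.24 RPKM in TTF4, against 3.73 to 5.54 in the other lines. Of 27 Platr genes, which are named as pluripotency-associated transcripts, 8 were members, with TTF4 fractions from 0.658 to 0.963 and fractions of at most 0.297 elsewhere. None of the 8 was matched to the histone table.

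The miRNA clusters differed in how their marks went along. Mir293, Mir294 and Mir295 had TTF4 fractions of 0.660, 0.740 and 0.847 and at most 0.0926 in the other lines. The H3K4me3 of Mir293 and Mir294 was the same 4.15, 5.97, 6.94 and 4.39 RPKM in PTC11, PTC12, TTF1 and TTF4, because genes in the same peak share its value, so TTF4 kept a peak there. Mir295 had 4.15 RPKM in PTC11, 6.94 in TTF1 and no value in PTC12 or TTF4. The start used for a miRNA is the start of its hairpin and not the promoter of its transcript. Mir19a, Mir20a, Mir19b-1 and Mir92-1 lie side by side and had TTF4 fractions of 0.702, 0.876, 0.877 and 0.866, and between 0.162 and 0.268 in the other lines. Their H3K4me3 was 2.87 or 2.93 RPKM in PTC11, 2.40 in PTC12 and 3.61 in TTF1, and none had a value in TTF4. Within each of these clusters the windows of the named genes overlap, so they are not separate observations.

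Genes of the germline gave 3 members of 54 (5.56%), Dmc1, Nanos3 and Dnd1. Of the 10 low in the other lines these were 30.0%, against 7.55%. Dmc1 had fractions of 0.143, 0.228, 0.0495 and 0.877, and H3K4me3 of 3.54, 4.42 and 4.33 RPKM in PTC11, PTC12 and TTF1. Dnd1, an RNA-binding protein that protects germ cells, had 0.277, 0.255, 0.192 and 0.896, with 4.59, 4.25 and 4.10 RPKM. Nanos3, needed for the survival of germ cells, was at 0.872 in TTF4, and had H3K4me3 in PTC12 (3.08 RPKM) and TTF1 (2.87 RPKM) only. None of the 3 had a value in TTF4.

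Of 60 lineage transcription factors 3 were members, the neuronal factor Neurod1, the cardiac mesoderm factor Mesp1 and the intestinal factor Cdx1, with TTF4 fractions of 0.804, 0.749 and 0.728. Of 104 secreted signals and receptors 2 were members, the Wnt antagonists Sfrp4 (0.897) and Sfrp5 (0.850). All 5 had H3K4me3 in PTC12 and TTF1 and none in TTF4. Among the genes of these lists that were low in the other lines, 44 and 82, the shares were 6.82% and 2.44%. Of all such promoters it was 7.55%, and of the protein coding ones 4.73%, so 6.82% lay between the 2 and 2.44% below both. None of 43 Hox and 44 forkhead genes was a member, of which 36 and 35 were low in the other lines.

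The lines were made to compare iPSCs of kidney and fibroblast origin. Of 43 kidney development genes 1, Itga8, was a member (2.33%, against 2.16% of all genes). This is 3.23% of the 31 low in the other lines, against 7.55% of all low promoters and 4.73% of the protein coding ones. Of 25 proximal tubule genes 2 were low in the other lines and none was a member. Itga8 lies at chr2:12106632-12301922 on the minus strand. Its fraction was 0.663 in TTF4, and 0.108, 0.0667 and 0.237 in PTC11, PTC12 and TTF1. The TTF4 fraction of Itga8 was below the TTF4 median over all autosomal genes, 0.768. H3K4me3 of Itga8 was 3.30, 4.77, 4.79 and 2.92 RPKM, with TTF4 lowest, close to PTC11. H3K36me3 was 1.67, 3.11, 1.16 and 3.61 RPKM, with TTF4 highest. Of 26 fibroblast and matrix genes 1 was a member (3.85%), which is 9.09% of the 11 low in the other lines. This was Loxl1, which cross-links elastin, with 0.215, 0.160, 0.0284 and 0.876, and its H3K4me3 of 2.34, 4.54, 5.45 and 2.75 RPKM placed TTF4 between the PTC lines.

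Of 51 imprinted genes 3 were members (5.88%, against 2.16% of all genes), which is 17.6% of the 17 low in the other lines, against 7.55%. Cdkn1c, a cell cycle inhibitor expressed from the maternal allele, had fractions of 0.0487, 0.0371, 0.0764 and 0.679, with H3K4me3 of 5.28 RPKM in PTC12 and 4.40 in TTF1 and no value in PTC11 and TTF4. Impact, expressed from the paternal allele, had 0.186, 0.179, 0.0556 and 0.615 and H3K4me3 of 2.84, 3.33 and 3.34 RPKM outside TTF4. The TTF4 fractions of Cdkn1c and Impact were below the TTF4 median over all autosomal genes, 0.768. Jade1 was at 0.923 in TTF4 and was not matched to the histone table.

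Of 84 cytosolic ribosomal protein genes Rps10 (0.756 in TTF4) and the processed pseudogene Rps4l (0.911) were members, which is 2.38%, against 2.16% of all genes. Of the 73 low in the other lines they were 2.74%, against 7.55% of all such promoters and 4.73% of the protein coding ones. Of 18 genes of the DNA methylation machinery, 9 of them low in the other lines, none was a member.

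Clustered protocadherins are cell surface proteins whose promoters are chosen at random in neurons. As a share of all genes with values, they ranked highest of any gene family of at least 50 genes in the fixed table. Of 68 protocadherin genes 12 were members (17.6%), and of the 23 low in the other lines 52.2%. Among low promoters the share was higher for olfactory receptors (60% of 10) and vomeronasal receptors (71.4% of 7). The fractions of the protocadherin members are given next. Their TTF4 fractions ran from 0.709 to 0.872 with a median of 0.819, and the other lines from 0.030 to 0.294. Of the 12 only 1 was in the histone table, where no line had H3K4me3 for it. Of 95 adhesion and orphan G protein coupled receptors 8 were members (8.42%), which is 20.0% of the 40 low in the other lines. Of 424 zinc finger genes 20 were members (4.72%), and of the 289 low in the other lines 6.92%. This compares with 7.55% of all low promoters and 4.73% of the protein coding ones.

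Some protein coding members had near-complete methylation in TTF4. Nsd1, a writer of H3K36 methylation, had 0.0567, 0.00454, 0.0995 and 0.993, and H3K4me3 of 3.25, 4.89 and 6.08 RPKM with none in TTF4. Rbmxl2 had 0.0856, 0.0331, 0.103 and 0.992, and 3.58, 5.17 and 4.72 RPKM with none in TTF4. Mlh3 had 0.011, 0.109, 0.129 and 0.966, and 3.45, 6.03 and 4.91 RPKM with none in TTF4. Each of these 3 genes kept H3K36me3 over its body in TTF4, at 4.33, 9.88 and 11.8 RPKM.

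Some others kept the mark and some did not. Pmaip1, the pro-apoptotic Noxa, was at 0.954 in TTF4 and had H3K4me3 of 3.42, 4.53, 3.70 and 2.13 RPKM. Glo1, which detoxifies methylglyoxal, was at 0.980 in TTF4 and had 4.46, 7.04, 7.01 and 4.79 RPKM, so TTF4 was within the range of the others. The annotated start of Glo1 lies inside Dnah8 and 2517 bp from another coding TSS. Fbll1 (0.889 in TTF4) had H3K4me3 in PTC12 and TTF1 only, and Gm12569 (0.907) had no histone value. 9030624G23Rik (0.971) and 5730507C01Rik (0.868) are protein coding genes on chromosome 12 and had H3K4me3 of at most 3.80 RPKM in any line. In TTF4 the former had 0.394 RPKM and the latter had no value.

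H3K4me3 was not used by the rule. Of the 1054 members 638 were in the histone table and 416 were not. Among the 638, H3K4me3 was listed for 29.9% in TTF4 (95% Wilson interval 26.5% to 33.6%, which covers counting error over genes only). It was listed for 60.8% in PTC11, 81.3% in PTC12 and 82.9% in TTF1. Over all 25484 autosomal genes of the table the share in TTF4 was 47.2%, against 46.4%, 58.0% and 56.6% in PTC11, PTC12 and TTF1. In the 7680 genes low in all 4 lines it was 98.0% in TTF4. A missing value means that no peak with a level above input was kept at that start, and not that the mark was measured as 0.

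Of 369 members with H3K4me3 in PTC11, PTC12 and TTF1, 215 (58.3%) had no value in TTF4. Over all autosomal genes this was 721 of 11727, or 6.15%, and over the genes low in all 4 lines it was 19 of 7327, or 0.259%. With PTC11 as the missing line it was 28 of 182 members (15.4%), against 6.76% of all genes. With PTC12 or TTF1 as the missing line it was 0 of 154, which allows a share of up to 1.95%. Over all autosomal genes these shares were 0.0636% for PTC12 and 0.0817% for TTF1, so 0 is not particular to the members. Without members that have another coding TSS within 5000 bp the TTF4 share was 61.4%, and for protein coding members 58.9%. Of the 369 members, 31 shared all 3 values with another gene. The reverse, H3K4me3 in TTF4 only, was seen in 4 of the 638 members of the histone table and in 104 of all 25484 autosomal genes.

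The highest H3K4me3 levels among protein coding members with no value in TTF4 belonged to 2210016F16Rik (4.04, 6.13 and 6.97 RPKM in PTC11, PTC12 and TTF1), Srgap3 (3.40, 6.84 and 5.96 RPKM), a GTPase activating protein of neurons, and Fbxo27 (3.42, 6.43 and 6.02 RPKM), a ubiquitin ligase subunit. They were picked for these values. The TTF4 fractions of these genes were 0.995, 0.749 and 0.867.

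**Figure D4:**
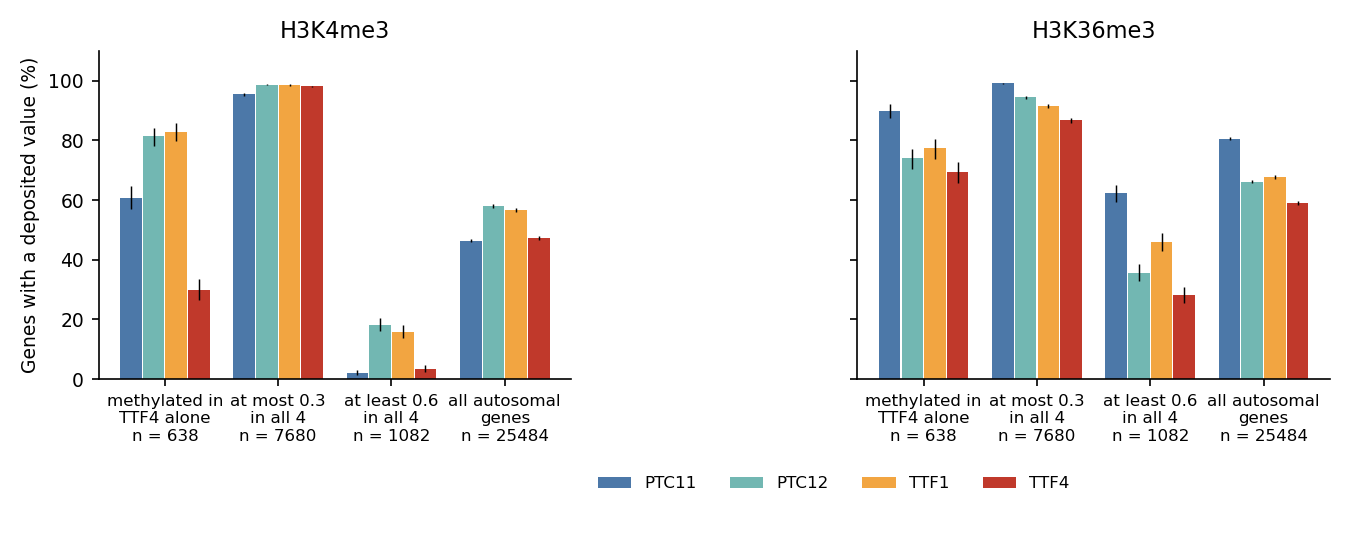
Percent of genes with a deposited H3K4me3 (left) or H3K36me3 (right) value in each line, by promoter class, with 95% Wilson intervals that cover counting error only. For H3K4me3 the TTF4 bar of the genes methylated in TTF4 alone, 29.9%, is below the other 3 lines (60.8% to 82.9%), while for H3K36me3 the 4 bars lie between 69.4% and 90.0%.

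The share followed the level of methylation in TTF4. Among all genes low in the other 3 lines, H3K4me3 was listed in TTF4 for 98.1% at TTF4 fractions under 0.1 and 92.4% at 0.4 to 0.5. From 0.5 to 0.6 it was 77.9%. Within the members it was 51.6% at 0.6 to 0.7, 34.1% at 0.7 to 0.8, 16.5% at 0.8 to 0.9 and 9.35% at 0.9 and above. Over the same 4 bins the share in TTF1 was 86.3%, 83.2%, 82.4% and 77.6%, and in PTC11 62.6%, 59.3%, 61.5% and 58.9%. The median number of CpGs was 125 in the lowest bin and between 45 and 57 in the 4 highest, so the bins differ in CpG content as well. Among genes with 80 to 120 CpGs, 32 of 89 members with H3K4me3 in the other 3 lines had it in TTF4. Of genes low in all 4 lines it was 99.9% of 3206. With 40 to 60 CpGs it was 42.9% of 84 against 99.3% of 302. The classes also differed in H3K4me3 level outside TTF4. The medians in members were 3.67 RPKM in PTC12 and 3.83 in TTF1, against 5.53 and 5.96 in genes low in all 4 lines. The part of CpG content and of peak level was not tested.

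**Figure D5:**
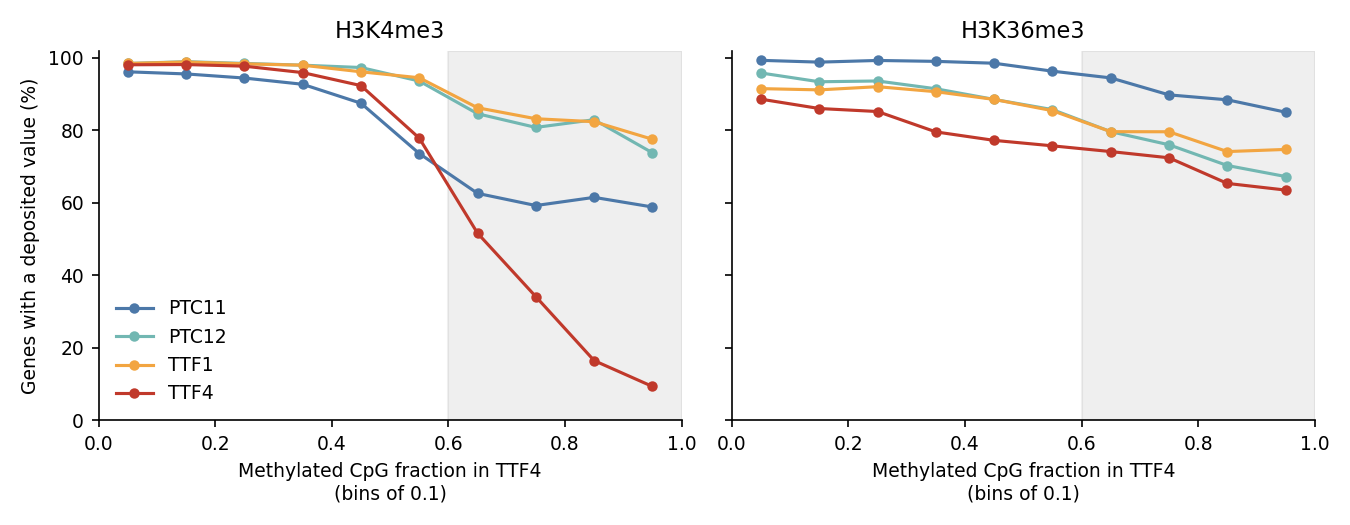
Percent of genes with an H3K4me3 (left) or H3K36me3 (right) value in each line against the methylated fraction in TTF4, in bins of 0.1, for genes at most 0.3 in PTC11, PTC12 and TTF1. The grey area holds the genes methylated in TTF4 alone. For H3K4me3 the TTF4 line goes from 51.6% to 9.35% inside it while TTF1 goes from 86.3% to 77.6%.

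Where a member had an H3K4me3 value listed in all 4 lines, its level in TTF4 was mostly below the mean of the other lines, as it was over all genes. The listed values include 0 RPKM, in TTF4 for 2410018L13Rik and Gm17391. These 154 genes passed a filter that the other members of the table did not, so they do not stand for the set. Their median level was 3.08 RPKM in TTF4, and 3.59, 4.32 and 4.72 RPKM in PTC11, PTC12 and TTF1. The median difference of TTF4 from the mean of the other lines was -0.39 on the log2(RPKM + 1) scale, against -0.31 over all 11006 autosomal genes with 4 values. TTF4 was at least 1 log2 unit lower, and below each other line, in 4 of the 154 (2.60%), against 0.136% of all such genes. These 4 were 2410018L13Rik, Snord4a, Gm13161 and Vmn2r-ps19. The last 2 lie on chromosome 4 and had equal values in 3 lines. The count was 7 without PTC11, 2 without TTF1, 10 with a pseudocount of 0.1 and 1 after quantile normalization. No member was higher in TTF4 by the same measure, against 0.0273% of all genes.

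The lncRNA gene 2410018L13Rik was listed at 0.334, 1.40, 2.38 and 0 RPKM. Snord4a, a small nucleolar RNA gene inside Rpl23a, had 3.89, 4.16, 8.99 and 1.94 RPKM, and the zinc finger gene Zfp808 had 2.77, 4.05, 5.29 and 1.48 RPKM, a difference of -0.99. At the other end were Zfp456, at 0.219, 2.32, 1.57 and 1.84 RPKM, Gm14418, at 0.666, 1.11, 1.30 and 1.44, and Rnu73b, at 2.97, 2.70, 3.76 and 3.92. Calr3, a chaperone of the testis, had 4.62, 4.14, 4.14 and 5.29 RPKM at a start 10 bp from that of another coding gene. Traf3ip2, an adaptor of interleukin 17 signalling, had 3.64, 2.88, 3.97 and 4.24 RPKM. In the last 4 of these genes TTF4 was the highest line, and in Zfp456 it was second to PTC12.

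Gene body H3K36me3 was listed in TTF4 for 69.4% of the 638 members (interval 65.8% to 72.9%). It was listed for 90.0%, 74.0% and 77.3% of them in PTC11, PTC12 and TTF1. The shares over all autosomal genes were 80.5%, 66.2%, 67.7% and 58.9%. Of 425 members with a value in the other 3 lines, 31 (7.29%) had none in TTF4, against 10.3% of all genes. Among the 394 members with 4 values the median was 4.18 RPKM in TTF4, and 1.64, 4.01 and 1.19 RPKM in PTC11, PTC12 and TTF1. The median difference of TTF4 from the other lines was 0.77 on the log2 scale, against 0.72 over all 13299 autosomal genes with 4 values, and became 0.074 after quantile normalization between lines.

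By 1 log2 unit and beyond each other line, H3K36me3 was higher in TTF4 in 82 of 394 members (20.8%), against 15.0% of all genes, and lower in 1 (0.254%), against 0.0752%. The lower count was 2 without TTF1, 2 with a pseudocount of 0.1 and 3 after quantile normalization. The lower gene was the lincRNA gene Gm20707, at 2.33, 3.45, 1.30 and 0.342 RPKM. Its start lies 52 bp from that of a coding gene. Next in order were Fbxo40, a muscle ubiquitin ligase subunit, at 2.04, 1.38, 0.979 and 0.329 RPKM, Tmem39a at 1.64, 3.78, 1.36 and 0.997, Calhm2 at 1.98, 2.48, 1.45 and 1.16, and Gpr37 at 1.69, 6.55, 1.61 and 2.16. The first 4 of these 5 were lowest in TTF4. The highest differences were those of Mlh3 (1.81, 4.19, 1.29 and 11.8 RPKM), Ttpa (1.68, 4.00, 1.32 and 8.97), which carries vitamin E, Cd160 (1.34, 4.30, 0.745 and 7.82), Zkscan16 (2.43, 5.40, 1.82 and 11.4) and 1600014C23Rik (1.56, 3.57, 0.305 and 6.67). Of these Zkscan16 alone kept H3K4me3 in TTF4, at 2.28 RPKM. Cd160 starts inside Pdzk1, and the signals of the overlapping genes cannot be told apart.

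The spread between lines of an origin left the comparison of TTF with PTC little power, so a missing call does not show that levels were alike. limma with adjustment over all 13709 genes with 4 values called 4 of 154 members for H3K4me3 between TTF and PTC, against 0.481% of all genes. These were Gm3468 (0.35 log2 units higher in TTF, SE 0.05, adjusted p = 2.49e-08), Gm14399 (-0.44, SE 0.09, adjusted p = 0.00044), Gm17391 (-0.15, SE 0.03, adjusted p = 0.000688) and Zfp456 (0.42, SE 0.11, adjusted p = 0.0326). Gm3468 stood at 0.117 and 0.709 RPKM in the PTC lines and at 2.01 and 0.0299 RPKM in TTF1 and TTF4. In each of the 4 genes the lines of an origin differed by more than the origins did, by 0.61 and 1.55 log2 units in Gm3468 and by 1.45 between the PTC lines in Zfp456, and no member was called without the variance trend, with a minimum mean of 1 RPKM or after quantile normalization. With a line left out, the lone line of that origin was assumed to vary like the other origin. Only effect sizes are therefore given for these fits. Without TTF1 the median difference of TTF from PTC was -0.31 log2 units in the members, against -0.21 over all genes tested. It was 0.20 against 0.29 without TTF4, 0.15 against 0.26 without PTC12 and -0.16 against -0.16 without PTC11. For H3K36me3, limma called 0 of 394 members, with 0 at an unadjusted p under 0.05, against 0.112% of all 17039 genes. H3K27me3, a mark of Polycomb repression, was listed for 1 of the 638 members in the histone table, the class I gene H2-Q7. The value came from 1 of the 2 PTC libraries, both of which are named PTC11. The share over all genes was not counted for this mark, so this count cannot be read as a trait of the members.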

How the data were processed

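CpG methylation (nanopore), H3K4me3 and H3K36me3 (ChIP-seq) were each measured in 4 mouse iPSC lines, with 1 library per line. The authors aligned nanopore reads to mm10 with minimap2 2.17-r941, called CpGs with Nanopolish and deposited, per gene, the fraction of methylated CpGs within 1 kb of the TSS, from windows of 300 bp moved by 30 bp. ChIP reads were aligned with Bowtie2 2.1.0 and peaks called with MACS2 2.0.10. The deposited RPKM are input-subtracted means over peaks, from 2 kb before to 3 kb after the TSS for H3K4me3 and across gene bodies for H3K36me3. The authors' filter leaves genes without a retained peak empty. Neither table holds read depth. The study's methods describe ChIP in duplicates, and the values used here are 1 column per line and mark.

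Genes of the 2 tables were joined by name and position. Levels were compared as log2(RPKM + 1) among genes with 4 values, and TTF with PTC by limma 3.58.1 (R 4.3.3) with a variance trend and Benjamini-Hochberg adjustment over all genes. This step was first tested on simulated data. Python 3.11.15 with pandas 2.3.3 was used elsewhere. CpGs were counted in GRCm38 within 1000 bp of each TSS. Members and gene lists were chosen with earlier results of these data known. Genes named in the text are members of the lists, the 10 coding members with the largest gap, the 5 lowest and 5 highest in TTF4 for each mark (mean of at least 1 RPKM), those nearest to the thresholds, and others stated as chosen after their values were seen. Alternatives covered thresholds, scaling, pseudocount, filters, missing values and each line left out. The list of respiratory chain genes is not reported here.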

Additional observations from a re-analysis of the deposited data

How the results depend on the processing

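Methylation, H3K4me3 and H3K36me3 have 1 library per line, and read depth and CpG coverage are unknown. Of the values behind the comparisons, 47 alternatives stayed close and 20 moved, and among single genes 77 stayed close, 21 moved and 2 reversed. The number of members was 263 with thresholds of 0.7 and 0.2, 367 with fractions centred on each line and 220 with quantile-normalized fractions, an alternative chosen after seeing the data. The H3K4me3 members called between origins (4) were 0 with a mean of at least 1 RPKM, 0 after quantile normalization and 0 without a variance trend. The members with lower H3K4me3 in TTF4 (4) were 10 with a pseudocount of 0.1, 1 after quantile normalization and 2 to 7 with each line left out. Those with lower H3K36me3 (1) were 2, 3 and 1 to 2. The median H3K4me3 difference (-0.39) was -0.16 after quantile normalization and -1.12 with missing values set to 0 RPKM, and that of H3K36me3 (0.77) was 0.074 after quantile normalization. H3K36me3 was listed in TTF4 for 79.3% of protein coding members, and its share missing in TTF4 alone was 5.11% without another coding TSS within 5000 bp. With each other line left out, the H3K4me3 difference of Zfp456 ran from -0.040 to 0.68, and the H3K36me3 difference of Gpr37 from -0.51 to 0.26, each reversed at the end without PTC11 and without PTC12, respectively. The cause was not tested. No paired analysis was possible because the PTC lines (11 and 12) and the TTF lines (1 and 4) have no number in common.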

Other observations

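Some members with roles in innate immunity were picked after the values were known, without a fixed list, so they stand for no group and no count is given. Over all members, 367 of 638 in the histone table had H3K4me3 in another line and none in TTF4. Of all 25484 autosomal genes of that table, 9855 had H3K4me3 in no line and 12034 had it in TTF4, so the rest showed this pattern. With H3K4me3 in all of the other 3 lines, 58.3% of the members had none in TTF4, against 6.15% of all autosomal genes. Ifitm3, an interferon-induced membrane protein that restricts virus entry, had fractions of 0.108, 0.233, 0.123 and 0.920 in PTC11, PTC12, TTF1 and TTF4, and H3K4me3 of 4.14, 3.18 and 3.25 RPKM outside TTF4. Its neighbour Ifitm1 had 0, 0.210, 0.156 and 0.694, with 2.15, 3.64 and 4.05 RPKM. Trim25, a ubiquitin ligase of the RNA sensing pathway, had 0, 0.198, 0.0465 and 0.918, with 3.78, 6.28 and 5.04 RPKM. The RNA sensor Ddx58 (0.702 in TTF4) had H3K4me3 in PTC12 and TTF1, and Tlr3 (0.612) and Zbp1 (0.658) in TTF1 only. Bst2 (tetherin) was at 0.721 in TTF4 and kept H3K4me3 there at 3.06 RPKM, below the 4.43 to 5.22 RPKM of the other lines. The DNA sensor Cgas was at 0.821 in TTF4 and was not matched to the histone table. Ifi35 (0.942 in TTF4) and Zc3hav1 (0.619) had H3K4me3 in all 4 lines, at 2.15 and 2.84 RPKM in TTF4.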
